A study of Mus musculus with 6 samples.

Results

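Reference genes are transcripts taken to hold steady between conditions, so that other transcripts can be measured against them. The genes described here are 6 of that kind with roles in making, folding or displaying proteins: Tbp, Nono, Rpl13a, Hsp90ab1, Ppia and B2m. They were chosen by probe name, as 6 of the 15 genes that the array identifies by a RefSeq accession, among 60915 probes in all. The files pair the probes with NM_013684.3 (Tbp), NM_023144.2 (Nono), NM_009438.4 (Rpl13a), NM_008302.3 (Hsp90ab1), NM_008907.1 (Ppia) and NM_009735.3 (B2m).

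The RNA came from C2C12, an established mouse line whose myoblasts fuse into myotubes once serum is reduced. All cultures were grown in 10% fetal bovine serum and then differentiated in 2% horse serum. The 3 control cultures received no treatment, and 3 others were given 200 uM CoCl2 for 48 h before collection. CoCl2 is a chemical mimic of hypoxia that stabilises hypoxia-inducible factors. The design text describes the replicates as separate experiments in a single cell line, and each sample was read on 1 one-colour array after rRNA removal and random-primed labelling. Because whole cultures were lysed, less RNA per cell and fewer cells of a kind cannot be told apart. None of the markers listed for myotubes, myoblasts, fibroblasts or adipocytes is paired with a probe in the files, so the myotube label could not be checked on these arrays.

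Gene expression in a cell depends on a chain of machinery to which these genes belong. TBP helps to place RNA polymerases at promoters, NONO binds RNA in nuclear paraspeckles and takes part in splicing and transcription, and RPL13A is a protein of the large ribosomal subunit. Proteins are then folded and kept in shape by chaperones such as HSP90-beta (Hsp90ab1) and by prolyl isomerases such as cyclophilin A (Ppia). Beta-2-microglobulin (B2m) is the light chain of MHC class I, which shows peptides from degraded proteins at the cell surface. Each of these genes is in wide use as a reference in quantitative PCR, and hypoxia is a condition in which such references are commonly checked before use.

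All 6 genes were far above background on every array, so low signal did not limit the comparison. Each probe was printed 20 times per array, and 679 of 720 spot readings carried no outlier flag, all of them well above background and none saturated. Tbp, with the lowest signal over its own local background, still read 49.9 to 138 times that background. The array's 15 negative probes had median signals of 5.69 to 9.11, against Tbp medians of 999 to 2794. Over the array, 50.9% to 57.6% of probes were well above background, with the lowest share on CoCl2 replicate 1 and the next lowest, 53.7%, on control replicate 1. Control replicate 3 and the 3 CoCl2 arrays have the same scan start in their headers, while control replicates 1 and 2 each have another. Control replicates 1 and 2 were scanned on the same day, and the other arrays on a different day. Group and scan day therefore overlap in part, and the main comparison does not separate them.

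No gene of the 6 passed the test for a difference between CoCl2 and control cultures. Values are log2 signals after subtracting each array's 75th percentile, so they are relative to the brighter part of that array's probes. Groups were compared with limma across 34839 detected probes, with Benjamini-Hochberg adjustment and a threshold of 0.05, which 47.6% of those probes passed. The count of 0 of 6 therefore stands beside a broad response. An unadjusted p under 0.05 was found for 2 of the 6, Nono and Rpl13a, and for 55.6% of all tested probes. For 3 of the 6 genes (Nono, Rpl13a and Hsp90ab1) every treated array lay on one side of every control array, a separation that 59.5% of probes showed. The number past the threshold was not stable: it was 2 with normexp background correction, 2 with quantile normalization and 4 with limma's array weights. Of all 34839 tested probes, 16105, 16902 and 26511 passed under those settings, against 16580 in the main comparison. The count of 4 therefore stands beside a rise in calls over the whole array.

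**Figure D1:**
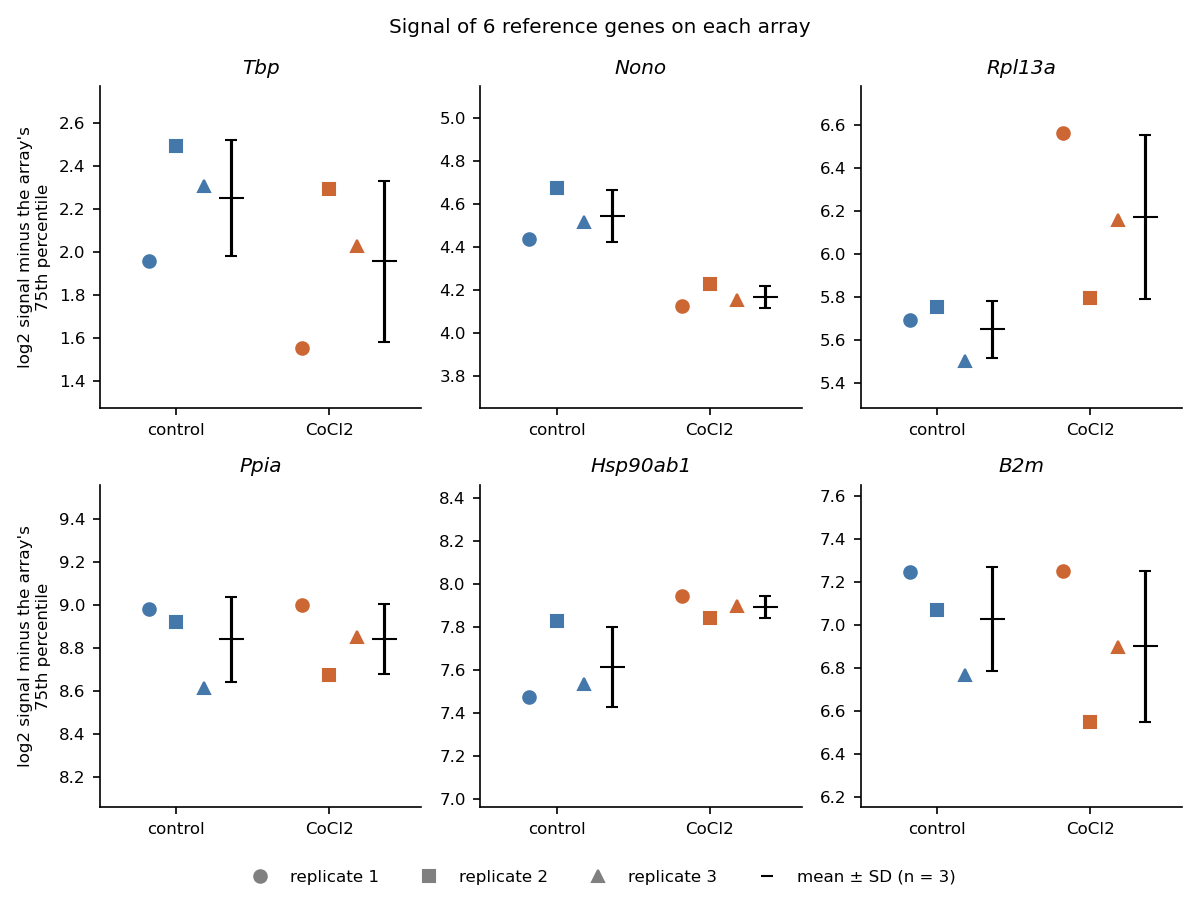
Log2 signal of each gene minus its array's 75th percentile, for control (blue) and CoCl2 (orange) arrays, with mean ± SD of 3 arrays; every panel spans the same number of log2 units. Nono, Hsp90ab1 and Rpl13a separate by group, while Ppia, B2m and Tbp overlap.

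Among the genes that act on transcription and RNA, Nono gave the clearest separation. Its log2 signal was 4.44, 4.67 and 4.52 in control replicates 1 to 3 and 4.13, 4.23 and 4.15 in the CoCl2 arrays. Every CoCl2 array lay below every control array, and the spread within groups was small. The difference was -0.38 (SE 0.14, adjusted p 0.0543, 95% interval -0.69 to -0.06), or 1.3-fold lower. Its within-group SD of 0.093 was smaller than that of all but 6.81% of tested probes, although each of these probes is an average of 20 spots and most others are a single spot. Nono passed under 8 of 19 alternatives, with adjusted p from 0.00145 to 0.256, and its difference ranged from -0.51 to -0.31.

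For Tbp the arrays of a group differed by more than the group means did. The log2 signal was 1.96, 2.49 and 2.31 in the controls and 1.55, 2.29 and 2.03 after CoCl2. The groups overlapped, and within both groups replicate 1 was the lowest. The difference was -0.30 (SE 0.23, adjusted p 0.323, 95% interval -0.84 to 0.25), lower by 1.23-fold with an interval that reaches both sides of 0. Without CoCl2 replicate 1 it was -0.09, and without CoCl2 replicate 2 it was -0.46. Tbp passed only with array weights, where it was at -0.30 (adjusted p 0.0317).

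Rpl13a, which serves translation, had the largest difference of the 6 and the widest range over arrays. Its log2 signal was 5.69, 5.76 and 5.50 in the controls and 6.56, 5.80 and 6.16 in the CoCl2 arrays. All CoCl2 arrays were above all controls, but CoCl2 replicate 2 exceeded the highest control by little and CoCl2 replicate 1 by much. The difference was 0.52 (SE 0.21, adjusted p 0.0789, 95% interval 0.02 to 1.02), or 1.44-fold higher. It is the single gene of the 6 whose interval was not contained within a 2-fold change in either direction. Without CoCl2 replicate 2 it was 0.71 and passed (adjusted p 0.0208), and without CoCl2 replicate 1 it was 0.33 (adjusted p 0.182). It also passed with normexp background correction (adjusted p 0.0492) and with array weights (adjusted p 0.00145), which makes 3 of 19 alternatives. Over all 19 it ranged from 0.28 to 0.71. Rpl13a and Ppia have many processed pseudogenes in the mouse genome, whose transcripts their probes may also read.

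The chaperone gene Hsp90ab1 had log2 signals of 7.48, 7.83 and 7.54 in the controls and 7.95, 7.84 and 7.90 after CoCl2. The CoCl2 arrays were all above the controls, by a narrow margin over control replicate 2, and their SD was 0.052 (n = 3) against 0.187 in the controls (n = 3). The difference was 0.28 (SE 0.15, adjusted p 0.155, 95% interval -0.07 to 0.63), and under quantile normalization it was -0.09. Hsp90ab1 passed only with array weights, where it was at 0.29 (adjusted p 0.013).

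Ppia was the gene with the smallest difference. Its log2 signals were 8.98, 8.92 and 8.62 in the controls and 9.00, 8.68 and 8.85 after CoCl2. The groups overlapped almost completely, with a difference of 0.0028 (SE 0.16, adjusted p 0.99). The 95% interval from -0.38 to 0.39 corresponds to folds between 0.766 and 1.31, so changes up to that size are not excluded. Of the tested probes, 0.29% had a smaller difference and 9.65% a smaller SD over the 6 arrays. The SD over the 6 arrays also holds the difference between groups, which favours a gene with a small difference. The SD of Ppia within groups was 0.181, and 32.6% of tested probes had a smaller one. As for Nono, the signal is an average of repeated spots, while most other probes are a single spot. The near-zero value did not hold under every setting. Median scaling put Ppia at 0.03, normexp background correction at 0.006 and scaling to the mean of the 6 genes at 0.0017. Under quantile normalization it was at -0.34 (adjusted p 0.0614). With scan start as a block, which leaves only control replicate 3 beside the CoCl2 arrays on the 75th percentile scale, it was at 0.23.

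B2m, of antigen presentation, had log2 signals of 7.25, 7.07 and 6.77 in the controls and 7.25, 6.55 and 6.90 in the CoCl2 arrays. Replicate 1 was the highest in both groups, as it was for Ppia, and the groups overlapped. The difference was -0.13 (SE 0.22, adjusted p 0.651, 95% interval -0.64 to 0.39). It was -0.46 under quantile normalization and passed there (adjusted p 0.0242), and was 0.13 within the scan start that control replicate 3 shares with the CoCl2 arrays.

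**Figure D2:**
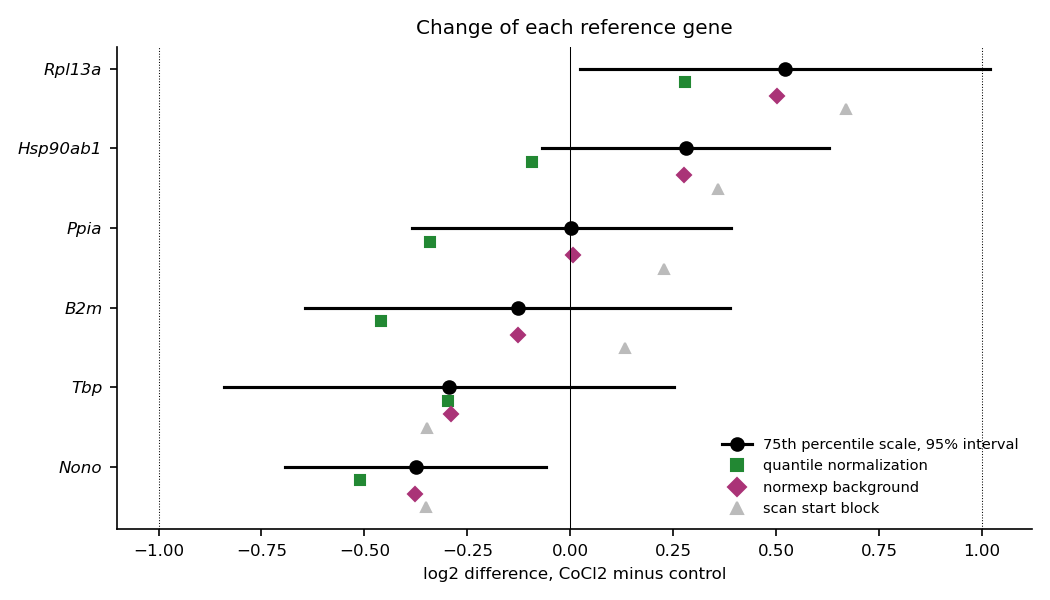
Log2 difference between CoCl2 and control for each gene with its 95% interval (black), and the difference under quantile normalization, normexp background correction and scan start as a block; dotted lines mark a 2-fold change. Rpl13a and Nono lie farthest from 0. Quantile normalization places every gene lower than the main scale does, though Tbp moves very little.

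Ppia, B2m, Rpl13a and Hsp90ab1 are among the brightest 10% of tested probes, and the median of those probes was higher after CoCl2 than that of all probes. That median log2 difference was 0.33 in the bin and 0.11 over all tested probes. Relative to the median of its own bin of brightness, each holding 10% of the probes, the difference was -0.51 for Nono, -0.46 for B2m, -0.34 for Tbp, -0.33 for Ppia, -0.05 for Hsp90ab1 and 0.19 for Rpl13a. By construction about 50% of a bin lies below its median, and these values carry no test. Under quantile normalization the median of the brightest bin was 0.04. The part of brightness in how these genes move with the scale was not tested.

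The spread between arrays was larger than the spread between repeated spots of an array. Repeated spots of a gene on an array had a median SD of 0.025 on the log2 scale, and the range was 0.0092 to 0.131. The highest of these SDs was that of Ppia on control replicate 1, where the spots read from 196545 to 278482. The SD of a gene over the 6 arrays was 4.97 times its median spot SD for Ppia and 19.8 times for Rpl13a, with the other 4 genes between. For Rpl13a, all spots of CoCl2 replicate 1 lay above all spots of the other arrays. The spread over arrays also holds the difference between the groups and any from labelling and hybridisation, which cannot be told apart from the cultures here. The standard error of an array's mean over its spots was at most 0.029. The spread between arrays, not between spots, is therefore the error used in every comparison here.

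**Figure D3:**
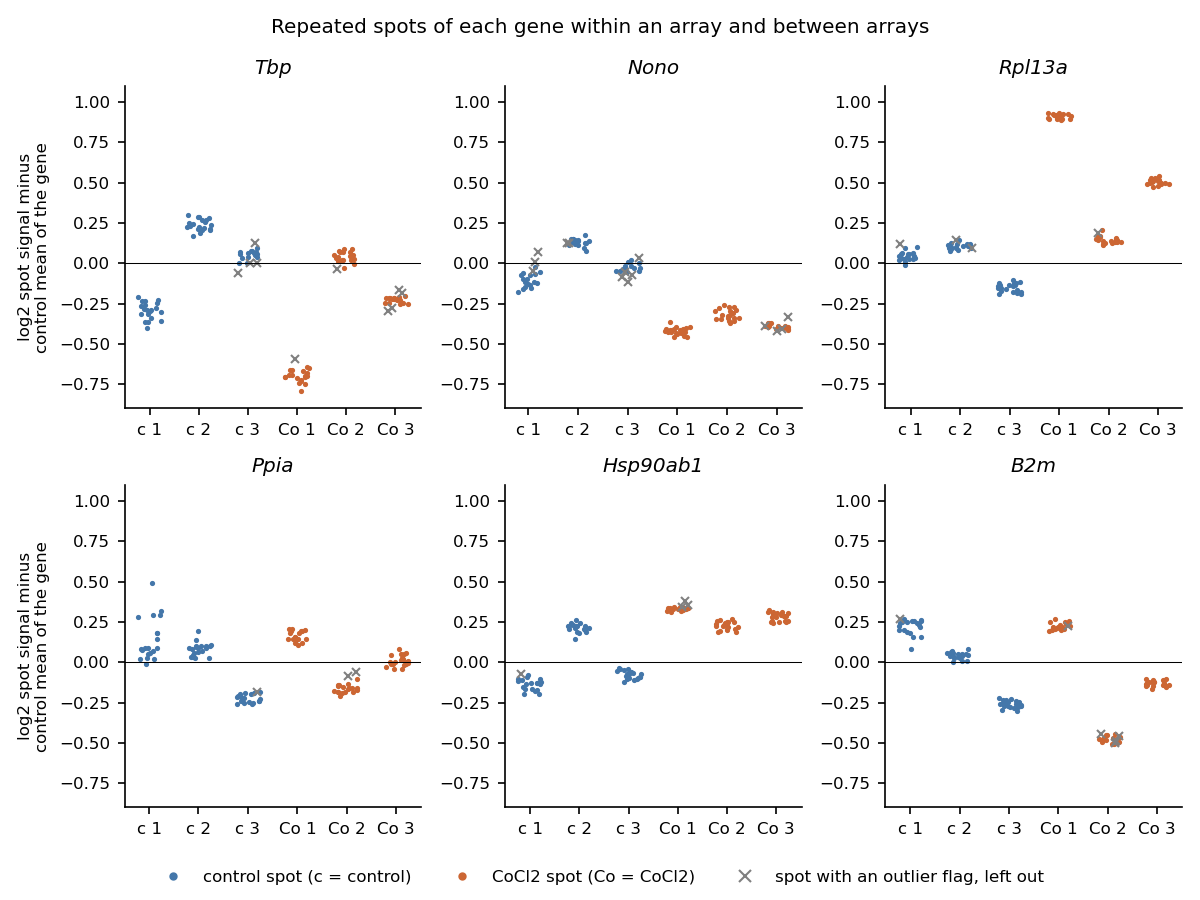
Log2 signal of every repeated spot minus the gene's mean over the control arrays, for control arrays c 1 to c 3 (blue) and CoCl2 arrays Co 1 to Co 3 (orange); grey crosses are spots left out for an outlier flag. Spots of an array cluster tightly while whole arrays stand apart, most of all for Tbp and Rpl13a on CoCl2 replicate 1.

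Ratios between 2 genes on the same array do not depend on a scale that shifts the whole array, so they show how reference genes moved against each other. Of the 15 ratios among the 6 genes, 3 (20%) passed an adjusted p of 0.05, each tested by scaling every tested probe to the other gene of the pair. In those fits 27.9% to 60.3% of all tested probes passed, so a share of 20% is below the background of these arrays. They were Hsp90ab1/Nono, Nono/Rpl13a and B2m/Rpl13a. The same number passed with the other gene of each pair as the scale.

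The Hsp90ab1/Nono ratio rose by 0.66 on the log2 scale (SE 0.14, adjusted p 0.00708), a 1.58-fold increase. Relative to the control mean, the log2 ratio was -0.03, 0.08 and -0.05 in the controls and 0.75, 0.54 and 0.67 in the CoCl2 arrays. The groups were well apart, and the change was several times the SD within either group (0.072 in controls and 0.104 after CoCl2, n = 3 each). It passed under 15 of the 17 alternatives that can change a ratio or its p, the exceptions being scan start and scan day as blocks (adjusted p 0.063 and 0.0641), where the change was 0.71. When every probe was scaled to Nono, 60.3% of them passed.

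The Nono/Rpl13a ratio fell by 0.90 (SE 0.28, adjusted p 0.0311, 95% interval -1.52 to -0.28), so that Rpl13a gained 1.86-fold on Nono. The log2 ratio relative to the control mean was -0.15, 0.03 and 0.12 in the controls and -1.33, -0.46 and -0.90 after CoCl2. The groups did not overlap, but the CoCl2 arrays differed from each other by more than the controls did. Without CoCl2 replicate 1 the change was -0.68 (adjusted p 0.0717), and leaving out any control array or CoCl2 replicate 3 also ended the call (adjusted p 0.0593 to 0.118). With scan start as a block it was -1.02 (adjusted p 0.227).

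The B2m/Rpl13a ratio fell by 0.65 (SE 0.22, adjusted p 0.0467), a 1.57-fold decrease. Its log2 values relative to the control mean were 0.17, -0.06 and -0.11 in the controls and -0.69, -0.62 and -0.64 in the CoCl2 arrays. The CoCl2 values agreed closely, with an SD of 0.033 (n = 3), although the signals of both genes varied from array to array. As for Nono/Rpl13a, leaving out any array except CoCl2 replicate 2 ended the call (adjusted p 0.0959 to 0.199). It was -0.54 with scan start as a block (adjusted p 0.334) and passed under 7 of 17 alternatives, against 10 of 17 for Nono/Rpl13a.

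Another 3 ratios separated the groups without passing, which makes 6 of 15 separated ratios. Of all tested probes, 68.7% separated the groups when scaled to Nono, 54.1% when scaled to Ppia, 54% with Hsp90ab1, 51.1% with Rpl13a and 44.7% with Tbp. These were Hsp90ab1/Tbp at 0.58 (SE 0.28, adjusted p 0.156), Ppia/Rpl13a at -0.52 (SE 0.23, adjusted p 0.11) and Hsp90ab1/Ppia at 0.28 (SE 0.19, adjusted p 0.283). Full separation of 3 arrays from 3 always gives p = 0.1 in an exact two-sided permutation test, the smallest p this design allows, so that test adds nothing for them. Rpl13a/Tbp had a change of 0.82 but an SE of 0.39 (adjusted p 0.148), because its log2 values after CoCl2 ran from 0.11 to 1.61. B2m/Ppia was at -0.13 (95% interval -0.55 to 0.28), with the smallest SD of any ratio over the 6 arrays. Of the 15 intervals, 8 were contained within a 2-fold change either way and 7 were not.

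**Figure D4:**
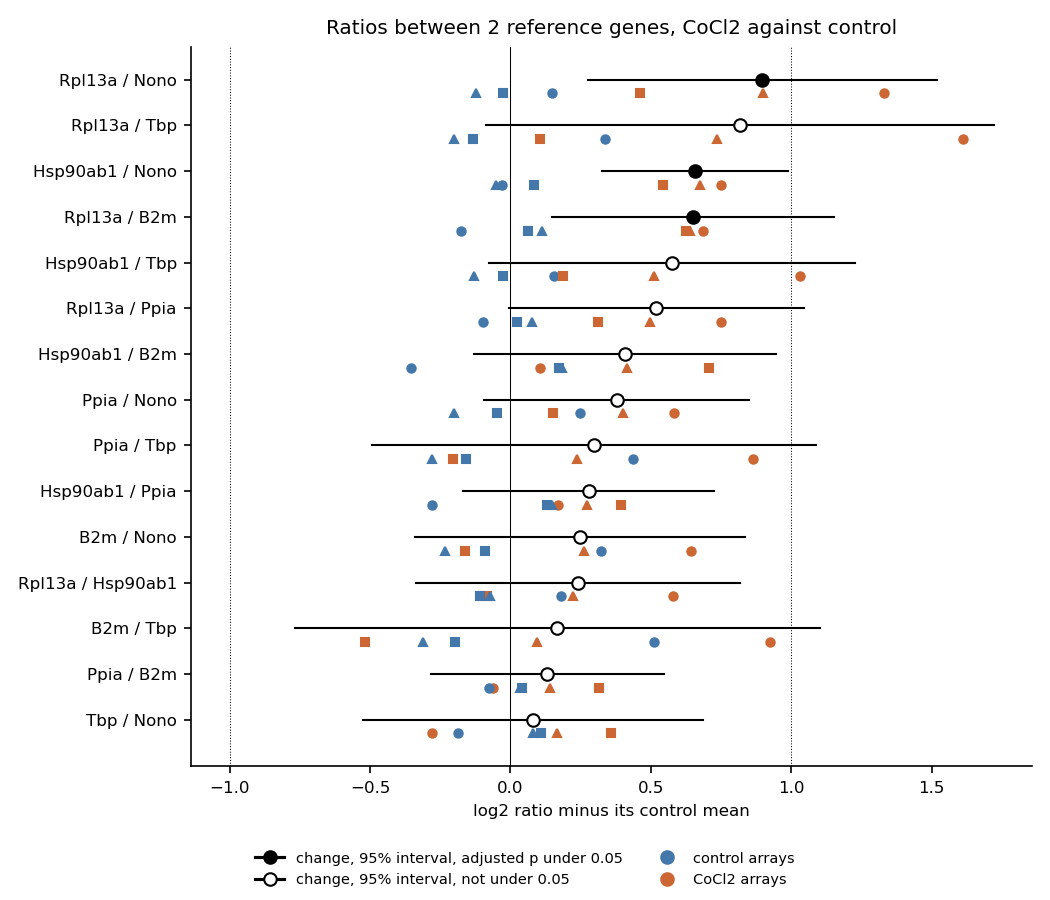
Change in the log2 ratio of each gene pair between CoCl2 and control with its 95% interval, each pair written so that its change is positive; coloured points give the log2 ratio on each array minus the control mean (circle, square and triangle for replicates 1, 2 and 3). Filled circles mark the 3 pairs that passed, Rpl13a/Nono, Hsp90ab1/Nono and Rpl13a/B2m.

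The stability measure M, used to choose reference genes, is the mean SD of a gene's log2 ratio to each of the others, here over 6 arrays and 5 partners. A low M marks a gene that keeps a steady ratio to the rest of the set. M was 0.286 for Ppia, 0.328 for Hsp90ab1, 0.351 for B2m, 0.36 for Nono, 0.442 for Rpl13a and 0.467 for Tbp. Neighbours in that order differed by less than the SD over partners, which was 0.0798 to 0.176. That SD is a spread among a gene's partners and not an error of M over arrays. Over the 10 alternatives that can change M, Ppia had the lowest M in all 10. These alternatives share arrays, so they are not independent of each other. The highest M was that of Tbp in 6 and of Rpl13a in 4 (quantile normalization, and without CoCl2 replicate 1, CoCl2 replicate 2 or both number 1 arrays). Dropping the least stable gene in turn removed Tbp, Nono, Rpl13a and Hsp90ab1, and left Ppia with B2m, whose ratio had an SD of 0.145 over the arrays.

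M was larger within the CoCl2 arrays than within the controls for all 6 genes. The 6 values are built from the same 15 ratios over 3 arrays per group, so they are not independent of each other. Not every ratio had a larger SD after CoCl2. Within the controls it ran from 0.166 (Rpl13a) to 0.286 (Tbp), and within the CoCl2 arrays from 0.254 (Ppia) to 0.554 (Tbp). Rpl13a was the most stable of the 6 among controls and had rank 5 of 6 among CoCl2 arrays. Ppia had rank 4 of 6 among controls (M 0.201) and rank 1 among CoCl2 arrays. CoCl2 replicate 1 weighed on M over both groups together. Without it, M over the other arrays was 0.307 for Tbp and 0.312 for Rpl13a, against 0.467 and 0.442 over all 6 arrays. M within the CoCl2 group was not computed without that array. That array also had the fewest probes well above background, and the part of this in the result was not tested.

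Against the mean of the other 5 genes, the group mean of Ppia stayed nearest to its control level. That order follows from the differences given above for each gene, so it is not separate evidence. Its CoCl2 arrays were at 0.09, -0.09 and 0.00 on the log2 scale relative to the control mean, and its controls at 0.20, -0.06 and -0.13. Nono was at -0.61, -0.27 and -0.48 after CoCl2, with controls at -0.10, -0.01 and 0.11. Rpl13a was at 0.99, 0.28 and 0.60, with controls between -0.04 and 0.08. Hsp90ab1 was at 0.30, 0.38 and 0.33, with controls between -0.14 and 0.09. Tbp was at -0.94, 0.16 and -0.28, with controls between -0.33 and 0.20, and B2m at 0.17, -0.47 and -0.17, with controls between -0.18 and 0.29.

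The effect of a single reference gene on all other probes was measured by scaling every array to each gene in place of the 75th percentile. Scaled to Ppia, 40.1% of 34839 probes passed, 7732 higher and 6229 lower after CoCl2, and 55.4% of the passing probes were higher. With Nono as the scale 60.3% passed, and 75.7% of these were higher. Rpl13a as the scale gave the opposite picture, with 36.6% passing and 21.8% of these higher. Hsp90ab1 gave 41.7% passing, of which 31.3% were higher, while B2m gave 32.7% passing and Tbp 27.9%, with 65.5% and 59.1% higher. The mean of the 6 genes gave 44.0% passing and 53.6% higher, close to the 47.6% and 52.9% of the 75th percentile.

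**Figure D5:**
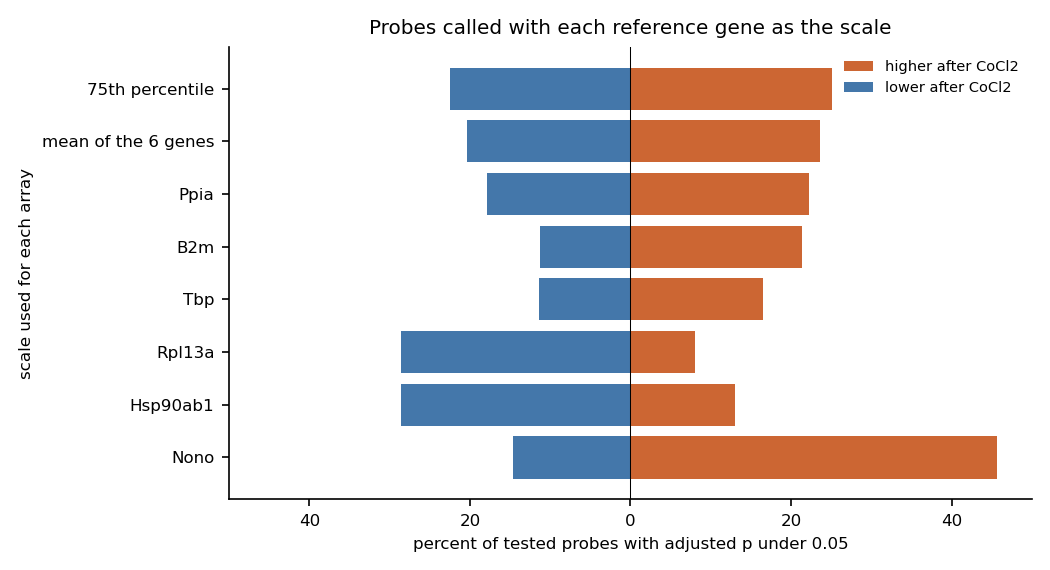
Percent of 34839 tested probes with an adjusted p under 0.05, higher (orange, right) and lower (blue, left) after CoCl2, for each scale. With Nono as the scale 45.6% were higher and 14.6% lower, and with Rpl13a 7.98% were higher and 28.6% lower.

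A single-gene scale shifts the log2 difference of every probe by the same amount, so the values of other named genes restate that shift, and what the scale can change is the call. Of the list of 15 common reference genes set against these 6, 7 are named on the array and 6 of those were tested through a RefSeq-named probe. On the 75th percentile scale 1 of these 6 rose (Hprt), 1 fell (Gusb) and 4 did not pass, with a median difference of -0.13 beside 0.11 over all tested probes. Gapdh, a glycolytic enzyme, was 1.76-fold higher when scaled to Nono (log2 0.82, SE 0.22, adjusted p 0.0156) and did not pass on the other 5 genes, where it was between -0.08 (scaled to Rpl13a) and 0.74 (scaled to Tbp). Hprt, of purine salvage, was 1.80-fold higher scaled to Ppia (log2 0.85, SE 0.17, adjusted p 0.00529) and at 0.33 scaled to Rpl13a (adjusted p 0.262). The actin gene Actb did not pass on the 75th percentile scale (-0.39, adjusted p 0.213) and fell 1.88-fold when scaled to Rpl13a (log2 -0.91, adjusted p 0.0344). Gusb, a lysosomal enzyme, passed as lower on every scale, by 6.06-fold with Nono and 11.3-fold with Rpl13a.

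Of the other 13 tested genes with a symbol, the one that kept the steadiest ratio to Ppia over the 6 arrays was the transferrin receptor gene Tfrc (SD of the log2 ratio 0.098). Tfrc was also nearest to Hsp90ab1 (SD 0.217). Ppia was nearest to B2m (SD 0.145), Nono to Tbp (SD 0.235), the tubulin gene Tuba1b to Nono (SD 0.234) and Hprt to Rpl13a (SD 0.198). For Nono, the distance to Tbp was almost the same as that to Tuba1b (SD 0.235), and for Rpl13a that to Gapdh was almost the same as that to Hprt (SD 0.199). None of the other lists set beside the 6 genes, for chaperones, ribosomal proteins, TFIID, paraspeckles, antigen presentation and cyclophilins, has a member paired with a probe in the files.

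Promoter sequences are shown for Rpl13a and Nono, whose ratio moved the most among the 3 that passed. The Ppia sequence is shown as well, because its ratios to the set were the steadiest over the 6 arrays. Each covers the 250 bases before the gene's start in RefSeq on GRCm38.p6, written 5′ to 3′ on the gene's strand. The array design is annotated to mm9, and no signal was placed by coordinates. Capitals mark ACGTG or GCGTG on either strand, the core letters of the element that hypoxia-inducible factors bind. The windows are chr7:45128746-45128995 on the minus strand for Rpl13a, chrX:101429401-101429650 on the plus strand for Nono and chr11:6415617-6415866 on the plus strand for Ppia.
Rpl13a: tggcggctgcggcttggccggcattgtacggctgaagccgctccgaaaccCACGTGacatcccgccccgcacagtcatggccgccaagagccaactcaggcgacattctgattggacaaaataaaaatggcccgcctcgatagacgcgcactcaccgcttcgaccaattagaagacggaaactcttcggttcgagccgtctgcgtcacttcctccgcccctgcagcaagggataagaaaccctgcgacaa
Nono: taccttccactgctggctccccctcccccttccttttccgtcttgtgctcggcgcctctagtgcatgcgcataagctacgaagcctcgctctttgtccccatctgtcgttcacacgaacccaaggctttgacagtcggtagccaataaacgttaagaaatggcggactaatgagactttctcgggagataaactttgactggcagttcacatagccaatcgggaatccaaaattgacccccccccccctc
Ppia: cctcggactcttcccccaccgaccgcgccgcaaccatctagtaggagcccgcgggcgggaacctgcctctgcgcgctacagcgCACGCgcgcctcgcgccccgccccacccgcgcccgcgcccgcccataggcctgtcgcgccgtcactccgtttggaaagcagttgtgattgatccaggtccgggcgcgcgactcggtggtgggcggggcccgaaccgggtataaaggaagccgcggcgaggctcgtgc

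Of the 5 genes with a sequence in that table (Rpl13a, Nono, Ppia, Tbp and B2m), 2 held either motif, against 38.6% of 32851 promoter windows of the same length. Rpl13a held 2 overlapping matches to ACGTG, 1 on each strand, within a single palindrome, and 16.6% of all windows held that motif. Ppia held 1 match to GCGTG, on the minus strand, a motif found in 28.2% of all windows. The letters of neither motif are in the Nono, Tbp or B2m windows. These matches describe the sequence only, and binding was not measured.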

How the data were processed

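Each file holds 1 array's spot intensities. The deposited intensities came from the scanner software named in the file headers (Agilent Feature Extraction, version 11.0.1.1), whose statistics record background subtraction and spatial detrending. The headers record no normalization between arrays by the authors. The deposited flags, 0 or 1 per spot, mark spots that are outliers, saturated or well above background. The value table deposited with the series was not used here, because none of the 6 genes was matched in it. Control and negative-probe spots and flagged spots were left out, spots of a probe were averaged as log2, and each array's 75th percentile over 60915 probes was subtracted. A probe was tested if well above background on at least 3 arrays (at least 50% of its spots). Groups were taken from the sample titles and compared in R 4.3.3 by lmFit and eBayes of limma 3.58.1 (4 residual degrees of freedom, two-sided, Benjamini-Hochberg), and p-values measure the spread between these 6 arrays. Normexp (offset 50) used the deposited median spot and background intensities, because mean spot signals were not used here. The fits were tested on simulated data. The genes named are the 6 members and, for each, the named gene with the steadiest ratio to it. Gusb, Gapdh and Actb in the comparison of scales were picked after their values were seen. The members and lists were chosen with earlier results of these data known.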

Additional observations from a re-analysis of the deposited data

How the results depend on the processing

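The number of genes past the threshold, 0 in the main comparison, was 2 with normexp, 2 with quantile normalization, 1 with the filter on all 6 arrays, 1 with a trended robust prior, 4 with array weights (0.214 for control replicate 1, 16.8 for CoCl2 replicate 3), 0 to 1 with an array left out and 1 (Nono) without both number 1 arrays, a choice made after seeing the data. The number of pairs, 3 in the main comparison, was 10 with array weights, 0 with scan start and 0 with scan day as a block, and 1 to 4 with an array left out. Both blocks leave a single control array with the CoCl2 arrays and fewer residual degrees of freedom. Over the whole array, too, fewer probes passed under both blocks than in the main comparison. With array weights 26511 of 34839 probes passed, against 16580 in the main comparison. With an array left out 11491 to 17538 passed, and with a trended robust prior 16678. The changes in pairs with array weights and with the blocks therefore stand beside changes over the whole array, counted on the main scale. With replicate number as a block 1 gene (Nono) and 4 pairs passed. Deviations of arrays of the same number correlated at r = 0.30, 0.36 and -0.03 for numbers 1, 2 and 3. With arrays of another number, r ran from -0.37 to 0.04 for number 1 and from -0.30 to -0.03 for number 2. For number 3 it ran from -0.14 to 0.18. These values do not settle whether the numbers pair the samples, and the main comparison took them as unpaired. Tbp as the scale gave 9730 passing probes against 16580.

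Ppia took the opposite sign under quantile normalization (-0.34), without both number 1 arrays (-0.0056) and with an array left out (-0.11, -0.077 and -0.00086 without control replicate 3, CoCl2 replicate 1 and CoCl2 replicate 3, with 0.086 the highest). So did B2m with scan start (0.13) or scan day (0.13) as a block, with array weights (0.020) and without CoCl2 replicate 2 (0.047, against -0.30 without CoCl2 replicate 1), and Hsp90ab1 under quantile normalization (-0.094). Among pairs, signs turned for B2m/Tbp under quantile normalization (-0.16) and without CoCl2 replicate 1 (-0.21, against 0.51 without CoCl2 replicate 2), Ppia/Tbp under quantile normalization (-0.046), and Nono/Tbp without control replicate 1 (0.01) and without CoCl2 replicate 2 (0.058, against -0.26 without CoCl2 replicate 1). None of these had passed in the main comparison, and the cause was not tested. Neither the sign nor the call moved for 90 of 114 gene values and 219 of 255 pair values; median scaling, which cannot change a ratio, is left out. Of 60 values of M under the 10 alternatives that can change it, 58 moved by less than the SD over partners. Those of Tbp (0.264) and Hsp90ab1 (0.233) without both number 1 arrays moved by more. That SD is not an error of M, so the count does not measure how steady M was. The 58 include Tbp without CoCl2 replicate 1, at 0.307 against 0.467. The alternative that used the deposited value table was not run, because none of the 6 genes was matched in it. The 3 arrays per group limit every value.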
